A study of Mus musculus with 4 samples.

Results

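The 6 genes of the CSF1, IL34 and RANKL axis were followed through the proximal tissue of the mouse lower incisor by single-cell RNA sequencing. They were Csf1, Il34 and their receptor Csf1r, Tnfsf11 (RANKL), its receptor Tnfrsf11a (RANK) and its soluble decoy receptor Tnfrsf11b (osteoprotegerin, OPG). All 6 symbols were found among the 32285 gene identifiers of the files. The tissue came from mice of 15 days of age and gave 4 libraries, 2 from WT mice and 2 from Din-KO mice. The Din-KO allele is constitutive, so it is present in every cell, lacks exon 2 and carries a lacZ reporter. How many mice a library stands for is not stated, and nothing says that 2 libraries of a genotype came from separate mice. P-values therefore measure only the spread between these libraries, which may be technical.

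CSF1 and IL34 both bind CSF1R, a receptor tyrosine kinase that macrophages, monocytes and osteoclast precursors need for survival and growth. RANKL on mesenchymal cells binds RANK on these precursors and drives them to fuse into osteoclasts, the cells that resorb bone, and OPG holds RANKL away from RANK. The dental follicle, the mesenchyme that surrounds a growing tooth, is known as a source of such signals during eruption, when bone in the path of the tooth has to be resorbed.

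In GRCm38, Csf1 spans bases 107741048 to 107760469 of chromosome 3 (minus strand). Il34 spans 110741829 to 110805924 of chromosome 8 (minus strand). Csf1r spans 61100598 to 61132149 of chromosome 18 (plus strand), where Hmgxb3 overlaps it on the other strand. Tnfsf11 spans 78277445 to 78308043 of chromosome 14 (minus strand). Tnfrsf11a spans 105780718 to 105847981 of chromosome 1 (plus strand), and Tnfrsf11b 54250619 to 54278484 of chromosome 15 (minus strand). All 6 are annotated as protein-coding.

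The kept cells numbered 3903 and 1560 in WT replicates 1 and 2 and 4575 and 1272 in Din-KO replicates 1 and 2, with a median of 8016 to 11588 unique molecular identifiers (UMIs, counted transcripts) per cell. Pairs of libraries shared 0 to 4 cell barcodes. Replicates of the same number resembled each other in composition. Dental pulp-like cells were 47.2% and 45.1% of the WT and Din-KO cells in replicate 1, and 15.6% and 15.3% in replicate 2. Dental follicle-like cells were 7.43% and 6.73% in replicate 1, and 22.9% and 19.3% in replicate 2. The din transcript was at 33.1 and 24.6 counts per 1e6 UMIs (CPM) in the WT libraries, and at 17.3 and 21.0 CPM in those of Din-KO, but the position of these UMIs along the gene was not analysed here, so whether they fall in the deleted exon 2 is not known and they do not check the genotype. Y-linked UMIs were found in 32.5% to 60.0% of follicle-like, pulp-like and macrophage-like cells of the Din-KO libraries and in at most 0.412% of those of the WT libraries, so sex and genotype cannot be told apart in a comparison of all cells. A value in CPM is the UMIs of a gene per 1e6 UMIs summed over the cells of a class in a library. The 4 values of a gene are given in the order WT replicate 1, WT replicate 2, Din-KO replicate 1, Din-KO replicate 2, and a mean ± SD is over these 4 libraries. UMIs are counted at the 3′ end, so levels are compared between cells for 1 gene and not between genes.

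RANKL was higher in the follicle than in the pulp. Tnfsf11 was at 14.8, 9.84, 11.7 and 12.8 CPM in dental follicle-like cells (12.3 ± 2.1), on 52 to 73 UMIs in 245 to 357 cells. In dental pulp-like cells, the more abundant mesenchyme inside the tooth, it was at 0.119, 0.295, 0.260 and 1.29 CPM, on 2, 1, 4 and 3 UMIs in 1841, 243, 2061 and 194 cells. Every follicle-like value lay above every pulp-like value. The ratio of follicle to pulp was 124 (95% exact counting interval 33.0 to 1045), 33.4 (5.81 to 1337), 45.0 (16.6 to 171) and 9.90 (3.24 to 49.3), so its size was poorly fixed in single libraries. Across the libraries, edgeR's quasi-likelihood test with the library as a block gave a log2 fold change of 5.39 (SE 0.45, Benjamini-Hochberg adjusted p = 9.03e-05).

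OPG was higher in the follicle too. Tnfrsf11b was at 21.9, 13.8, 26.6 and 21.4 CPM in follicle-like cells (20.9 ± 5.3) and at 2.21, 3.24, 1.95 and 6.44 CPM in pulp-like cells (3.46 ± 2.06). The fold was 9.90, 4.24, 13.6 and 3.32 in the 4 libraries, with a log2 fold change of 2.94 (SE 0.32, adjusted p = 0.000347, edgeR). Follicle-like and odontoblast-like cells (12.2 ± 3.6 CPM) ranked first and second for Tnfrsf11b, and their ranges overlapped. Odontoblasts are the cells that lay down dentin. T or NK-like, B-like, monocyte or dendritic-like, neutrophil-like and osteoclast-like cells held no UMI of it.

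**Figure D1:**
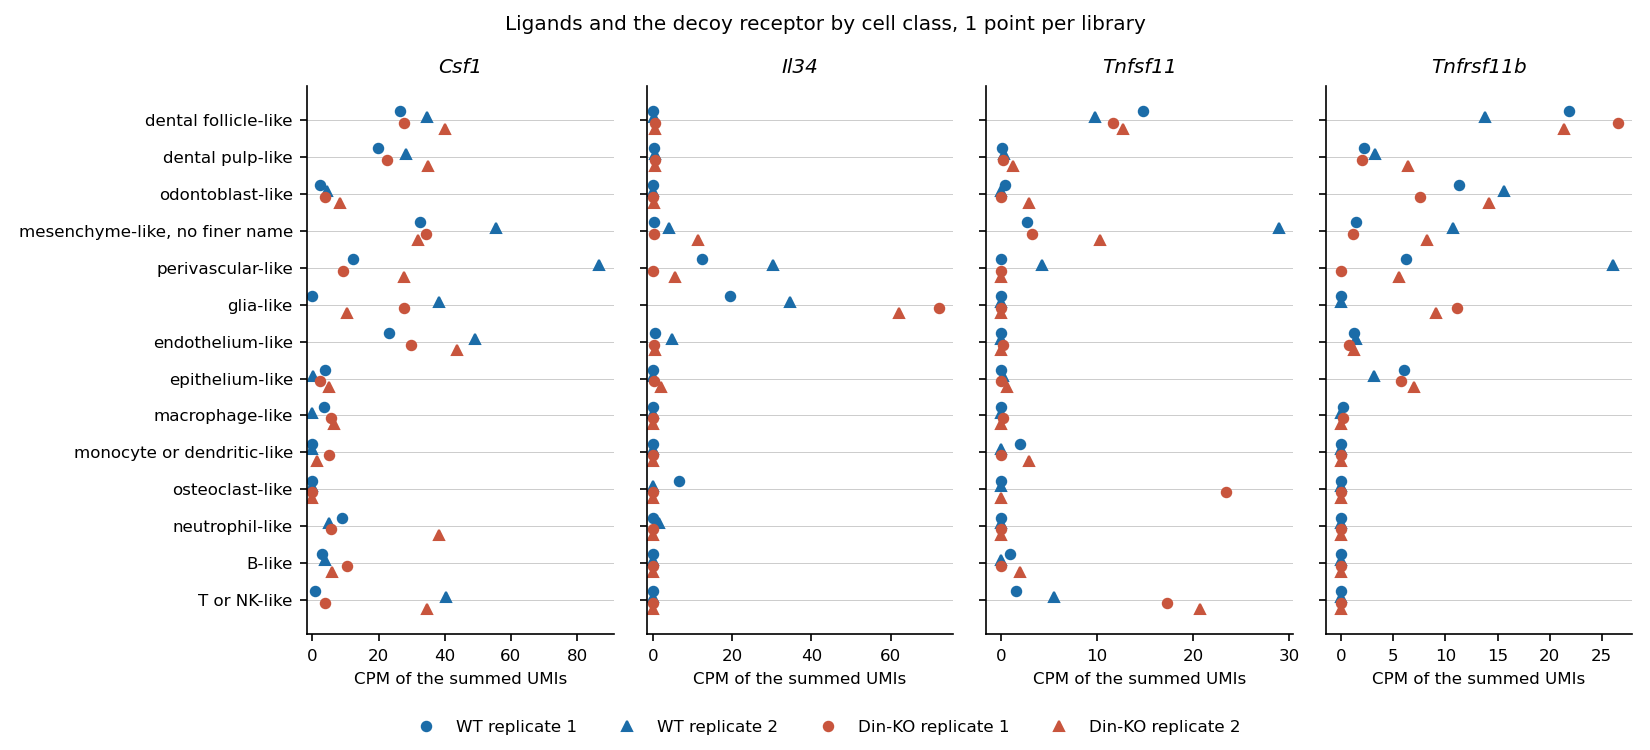
Levels of Csf1, Il34, Tnfsf11 and Tnfrsf11b (x axes, CPM of the UMIs summed per class and library) in 14 cell classes (y axis), 1 point per library, blue for WT, red for Din-KO, circles for replicate 1 and triangles for replicate 2. Follicle-like cells hold Tnfsf11 at 9.84 to 14.8 CPM in all 4 libraries, and glia-like cells lead for Il34 at 19.6 to 72.2 CPM.

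Deeper cells show a gene more often, and follicle-like cells were deeper (median 10884 to 18353 UMIs) than pulp-like cells (6891 to 10702 UMIs). A UMI of Tnfsf11 was found in 13.1%, 8.12%, 8.44% and 11.8% of follicle-like cells and in 0.109%, 0.412%, 0.194% and 0.515% of pulp-like cells. With each cell thinned to 2000 UMIs, the shares were 3.46%, 2.52%, 0.980% and 2.87% in follicle-like cells and 0%, 0%, 0.146% and 0% in pulp-like cells. In B-like cells (median 2579 to 3550 UMIs), which stand here for a class outside the mesenchyme, the unthinned share was 0% to 0.952%. Not all other classes were that low. Follicle-like cells had the highest mean CPM of Tnfsf11, followed by T or NK-like cells (11.3 ± 9.2, range 1.63 to 20.7). Mesenchyme-like cells with no finer name came next (11.3 ± 12.2, range 2.69 to 28.9). Both ranges overlapped that of follicle-like cells.

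All 5 genes that could be tested were called higher in follicle-like than in pulp-like cells, where 18.5% of the 13306 genes tested were called higher and 16.9% lower. The members' median log2 fold change was 2.94, and that of all genes tested was -0.02. The calls of Csf1 and Csf1r were lost under several settings. Csf1 was at 26.4, 34.7, 27.7 and 40.1 CPM in follicle-like cells (32.2 ± 6.4) and at 19.8, 28.3, 22.5 and 34.8 CPM in pulp-like cells (26.4 ± 6.6). It was higher in follicle in 4 of 4 libraries, as were 23.7% of the 13306 genes tested. Its log2 fold change was 0.33 (SE 0.10, adjusted p = 0.0311, edgeR). Without the follicle cluster led by Spp1 and Mmp13, a selection made after seeing the data, it was -0.03 (adjusted p = 0.896), and in clusters at a resolution of 0.5 it was -0.04 (adjusted p = 0.752).

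Csf1r was at 9.11, 3.24, 19.6 and 7.85 CPM in follicle-like cells and at 2.15, 4.42, 4.62 and 5.58 CPM in pulp-like cells, higher in follicle in 3 of 4 libraries (log2 fold change 1.32, SE 0.41, adjusted p = 0.0410, edgeR). The summed level of the 8 macrophage markers was 137, 34.8, 329 and 75.8 CPM in follicle-like cells, which ranked the libraries as Csf1r did. In pulp-like cells it was 64.3, 51.9, 79.6 and 63.6 CPM, in another order than Csf1r. WT replicate 2 was the library in which both Csf1r and these markers were lower in follicle. The part of macrophage transcripts in the Csf1r level was not tested. When the 5% of cells with the highest Scrublet doublet scores in each library were removed, the log2 fold change of Csf1r was -0.26 (adjusted p = 0.535). The call was also lost without WT replicate 1 (1.03, adjusted p = 0.151) or without Din-KO replicate 1 (0.89, adjusted p = 0.241). Il34 had too few UMIs for this test.

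Inside the follicle, RANKL and OPG were highest in different clusters, except in Din-KO replicate 2. The follicle-like class was made up of 3 clusters, led by Sfrp2 and Pcp4 (44.8% to 62.0% of its cells in a library), by Bmp3, Dkk2 and Nts (24.7% to 44.8%) and by Spp1, Mmp13 and Ibsp (10.4% to 26.9%). Sfrp2 is on the marker list of dental pulp. Dental follicle was the best-scoring list of its cluster, with 1 follicle marker, Pcp4, among the 10 leading genes. The 6 genes and the pathway genes took no part in the clustering. Differences between single clusters were noticed in the values and are given without a test. Tnfsf11 was at 41.5, 78.3, 62.5 and 45.5 CPM in the Spp1 and Mmp13 cluster, at 6.83, 6.87, 6.97 and 10.9 CPM in the Sfrp2 and Pcp4 cluster and at 1.42, 0.602, 0 and 1.83 CPM in the Bmp3 and Nts cluster. The ranges of the 3 clusters did not overlap. On the log2(CPM + 1) scale the Spp1 and Mmp13 cluster lay 2.44, 3.33, 2.99 and 1.97 above the Sfrp2 and Pcp4 cluster. The UMIs were not spread evenly over its cells. Tnfsf11 was found in 26 of 78, 12 of 37, 14 of 41 and 10 of 35 of them, and 1 cell held 15 of the 47 UMIs in WT replicate 2 and 1 cell 15 of the 32 UMIs in Din-KO replicate 2.

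At a resolution of 1, a further mesenchyme-like cluster with a RANKL level of this size lay outside the follicle-like class. It was led by Lpl, Lepr and Mgp and held 24, 56, 38 and 37 cells. Lepr, the leptin receptor, is known as a marker of stromal cells in bone marrow. The best-scoring marker list of this cluster was perivascular, with none of its markers among the leading genes, and the lists gave it no finer name. Tnfsf11 was at 29.4, 63.8, 36.8 and 35.2 CPM in it, found in 4, 24, 12 and 12 cells. Together, the Spp1 and Mmp13 cluster and the Lpl and Lepr cluster held 261 of the 411 Tnfsf11 UMIs in kept cells (63.5%, exact 95% interval 58.6 to 68.2%) in 346 of 11310 cells (3.06%). The share was 70.6%, 75.4%, 58.6% and 47.7% in the 4 libraries. These values spread wider than the interval, which pools the libraries and covers counting error only.

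Tnfrsf11b ran another way. In the Sfrp2 and Pcp4 cluster it was at 44.4, 25.8, 47.1 and 21.1 CPM, and that cluster held 341 of the 832 Tnfrsf11b UMIs in kept cells (41.0%) in 5.53% of the cells. In the Spp1 and Mmp13 cluster it was at 13.01, 11.7, 5.35 and 32.7 CPM, below the Sfrp2 and Pcp4 cluster in 3 of 4 libraries and above it in Din-KO replicate 2. In the Bmp3 and Nts cluster it was at 1.42, 1.504, 0 and 17.1 CPM, and 1 cell held 16 of the 28 UMIs behind the last value. In the Lpl and Lepr cluster it was at 3.26, 23.8, 2.30 and 24.7 CPM. Among odontoblast-like cells, the cluster led by Bglap and Dspp was at 24.8, 12.7, 14.3 and 22.0 CPM.

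The balance of the pair therefore differed between clusters. Of the UMIs of Tnfsf11 and Tnfrsf11b, Tnfsf11 made up 76.1%, 87.0%, 92.1% and 58.2% in the Spp1 and Mmp13 cluster (77.1% over all libraries, exact 95% interval 70.9 to 82.6%). It made up 13.3%, 21.1%, 12.9% and 34.1% in the Sfrp2 and Pcp4 cluster (19.6%, 15.9 to 23.7%) and 73.3% in the Lpl and Lepr cluster. This share compares the same pair across clusters and does not say which of both transcripts was more abundant in a cell. The 4 values of the first cluster lay above the 4 of the second. Both intervals pool the libraries and cover counting error only, and the library values spread wider than either.

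The Spp1 and Mmp13 cluster stood apart in its markers as well. The 10 follicle markers summed to 9196 to 13000 CPM in it and to 4162 to 5869 CPM in the Sfrp2 and Pcp4 cluster. In it the sum rested mostly on Mmp13 and Postn, at means of 7144.5 and 2793 CPM against 788 and 708 CPM. Aspn, Tnmd, Scx and Bmp3 were also higher in it than in the Sfrp2 and Pcp4 cluster. Pcp4, Nts, Aldh1a2 and Spon1 were lower, at 47.4, 143, 44.6 and 254 CPM against 1966, 933, 142 and 371 CPM. Against the Bmp3 and Nts cluster, Aspn and Scx were higher in it too, but Tnmd and Bmp3 were lower (41.8 and 88.2 against 110 and 546 CPM). The 6 osteoblast markers summed to 8873, 7880, 7011 and 4144 CPM in the Spp1 and Mmp13 cluster and to 643, 1003, 668 and 1068 CPM in the Sfrp2 and Pcp4 cluster. Its cells thus carried osteoblast genes such as Ibsp, which codes for bone sialoprotein, next to follicle genes. The part of osteoblast-lineage cells in its Tnfsf11 level was not tested. In the test against pulp-like cells, Tnfsf11 kept a log2 fold change of 3.88 without this cluster (SE 0.49, adjusted p = 0.000673, edgeR).

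**Figure D2:**
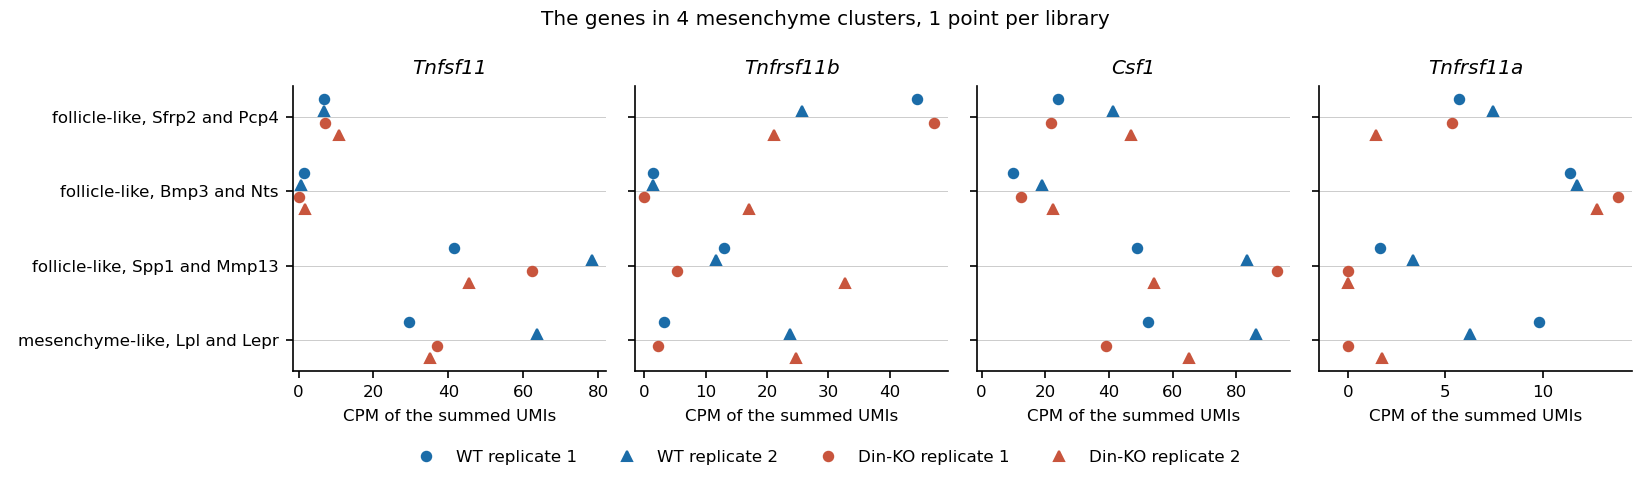
Levels of Tnfsf11, Tnfrsf11b, Csf1 and Tnfrsf11a (x axes, CPM of the UMIs summed per cluster and library) in the 3 follicle-like clusters and in the Lpl and Lepr cluster (y axis), 1 point per library with colours and symbols by genotype and replicate. Tnfsf11 is high in the Spp1 and Mmp13 cluster (41.5 to 78.3 CPM) and the Lpl and Lepr cluster (29.4 to 63.8 CPM), Tnfrsf11b in the Sfrp2 and Pcp4 cluster (21.1 to 47.1 CPM), and Tnfrsf11a in the Bmp3 and Nts cluster (11.4 to 13.9 CPM).

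Csf1 had many sources. By the mean over libraries, the mesenchyme-like cells with no finer name (38.6 ± 11.3 CPM), endothelium-like (36.5 ± 12.0), perivascular-like (34.0 ± 36.1), follicle-like (32.2 ± 6.4) and pulp-like cells (26.4 ± 6.6) came first, and neighbours in this order overlapped. Odontoblast-like (4.74 ± 2.58), macrophage-like (3.89 ± 2.87), epithelium-like (2.81 ± 2.04) and monocyte or dendritic-like cells (1.60 ± 2.32) were low, and osteoclast-like cells held no UMI of Csf1. In finer clusters, Csf1 was at 93.6, 64.3, 84.6 and 60.9 CPM in endothelium-like cells led by Vwf, which codes for von Willebrand factor. It was at 48.8, 83.3, 92.8 and 54.0 CPM in the Spp1 and Mmp13 cluster and at 52.2, 86.3, 39.2 and 65.1 CPM in the Lpl and Lepr cluster. In the pulp-like cluster led by Cldn10 and Enpp2 it was at 36.3, 69.3, 59.7 and 106 CPM. These 4 clusters overlapped, and all lay above the Bmp3 and Nts cluster (15.99 ± 5.78 CPM). They were not the only high ones. In the mesenchyme-like class with no finer name, the cluster led by Ifitm1 and Ldhb was at 67.7 ± 38.0 CPM. The cluster of that class led by Slc20a2 and Tnc was at 66.9 ± 8.4 CPM. Dental pulp was the best-scoring marker list of both, and their smallest libraries held 5 and 7 cells.

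Which class held most Csf1 UMIs followed the make-up of the library. Pulp-like cells held 45.9%, 16.05%, 40.8% and 15.98% of them and follicle-like cells 16.02%, 43.0%, 14.5% and 40.2%, so pulp led in both replicates 1 and follicle in both replicates 2. Mesenchyme-like cells with no finer name held 21.7%, 16.4%, 20.85% and 12.2%, more than follicle-like cells in both replicates 1. The share of endothelium-like cells was steadier, at 10.2%, 11.7%, 13.9% and 13.8%.

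IL34 was rare and did not follow CSF1. Kept cells held 13, 35, 25 and 79 UMIs of Il34 per library. Glia-like cells were highest, at 19.6, 34.5, 72.2 and 62.0 CPM (47.1 ± 24.3), on 2, 9, 13 and 41 UMIs in 14, 15, 20 and 45 cells. Of these UMIs, 2, 6, 13 and 39 lay in a cluster of 4, 3, 6 and 22 cells with Mbp, a gene of the myelin sheath, among its leading genes. This cluster held 15.4%, 17.1%, 52.0% and 49.4% of the Il34 UMIs in the 4 libraries, and 22 of its 35 cells came from Din-KO replicate 2. Perivascular-like cells came second (12.1 ± 13.2 CPM) on 2, 7, 0 and 1 UMIs, and their range overlapped that of glia-like cells. The Lpl and Lepr cluster held 1, 7, 0 and 22 UMIs, of which 1 cell of Din-KO replicate 2 held 14. Follicle-like cells were at 0 to 0.589 CPM and pulp-like cells at 0.239 to 0.589 CPM, and macrophage-like cells held no UMI in any library.

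The receptor of both cytokines marked the macrophages. Csf1r was at 960.3, 1393, 955 and 1044 CPM in macrophage-like cells (1088 ± 207). A UMI was found in 97.7%, 95.5%, 98.1% and 96.6% of them (median 8938 to 10469 UMIs), and in 82.4%, 85.6%, 81.4% and 82.8% after thinning to 2000 UMIs. In B-like cells (median 2579 to 3550 UMIs) the share was 0.985% to 3.03% unthinned and 0.508% to 1.94% thinned. Csf1r took no part in the clustering or the marker lists, but the classes rest on other genes of the same cells, so this level is a description. Monocyte or dendritic-like cells were at 181.6, 193, 374 and 245 CPM (249 ± 88), all below the macrophage-like values.

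RANK was high in the same cells, second only to the 16 osteoclast-like cells by the mean over libraries. Tnfrsf11a was at 85.6, 110, 87.6 and 102 CPM in macrophage-like cells (96.3 ± 11.6), and a UMI was found in 57.8%, 56.8%, 57.9% and 53.9% of them (17.0%, 20.7%, 16.4% and 20.7% after thinning), against 0% to 2.02% of B-like cells (0% after thinning). Monocyte or dendritic-like cells were at 22.4, 22.7, 17.2 and 11.8 CPM (18.5 ± 5.2), and these ranges did not overlap. Of macrophage-like cells with a Csf1r UMI, 58.3%, 58.5%, 58.9% and 54.7% also held a Tnfrsf11a UMI. After thinning, the share was 17.0%, 22.1%, 16.1% and 23.6% in cells with a Csf1r UMI and 16.9%, 12.5%, 17.6% and 6.67% in cells without, higher with Csf1r in replicate 2 of both genotypes, nearly equal in WT replicate 1 and lower in Din-KO replicate 1, with no test.

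The macrophage-like class had 3 clusters, and all of them held both receptors. In the cluster led by Apoe, Ctss and C1qa with Cx3cr1, the fractalkine receptor, Csf1r was at 1192, 1549.9, 1078 and 1086 CPM and Tnfrsf11a at 108, 110, 95.6 and 117 CPM. In the cluster with Lyve1 and Mrc1, scavenger receptors of tissue macrophages, Csf1r was at 921, 1461, 918 and 1136 CPM and Tnfrsf11a at 81.8, 115, 87.4 and 109 CPM. The values of these clusters overlapped for both genes. The third cluster, led by Pf4, Ccl2, Mrc1 and a histone gene, held 60, 5, 60 and 4 cells, with Csf1r lower at 619, 470.4, 659.8 and 491 CPM and Tnfrsf11a at 52.3, 83.0, 61.6 and 16.9 CPM, the last on 2 UMIs. Of the UMIs of the 2 receptors, Tnfrsf11a made up 8.19% in the first cluster and 8.34% in the second.

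Osteoclast-like cells numbered 10, 1, 4 and 1. They formed no cluster of their own but lay in the T or NK-like cluster, from which cells with at least 3 osteoclast markers were taken, a rule set after seeing the data. In WT replicate 1 they held all 9 osteoclast markers, with Acp5 and Ctsk, the acid phosphatase and cathepsin of bone resorption, at 10409 and 10306 CPM. In Din-KO replicate 2 the single cell held 3 of the 9 and no Ctsk. Csf1r was at 925, 1011, 669 and 132 CPM and Tnfrsf11a at 178, 485, 129 and 99.2 CPM, and 15 of the 16 cells held each receptor. With 1 cell in each of 2 libraries these values allow no comparison of genotypes. One of the cells, in Din-KO replicate 1, held 11 UMIs of Cd3e, a T cell gene.

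**Figure D3:**
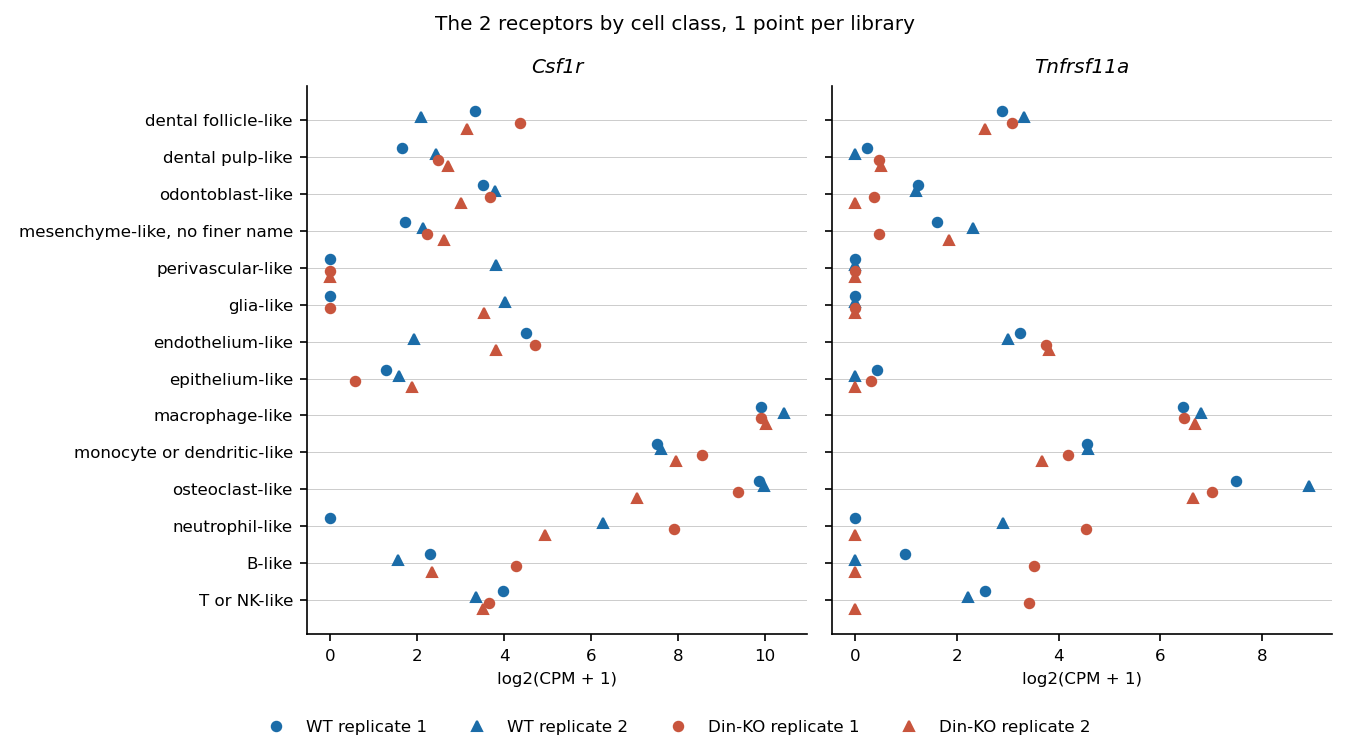
Levels of Csf1r and Tnfrsf11a (x axes, log2(CPM + 1) of the UMIs summed per class and library) in 14 cell classes (y axis), 1 point per library with colours and symbols by genotype and replicate. Macrophage-like cells stand at 955 to 1393 CPM for Csf1r and 85.6 to 110 CPM for Tnfrsf11a, and Tnfrsf11a also lies above 0 in follicle-like and endothelium-like cells of all libraries.

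RANK was also found outside the myeloid cells. Tnfrsf11a was at 6.38, 9.03, 7.43 and 4.91 CPM in follicle-like cells (6.94 ± 1.74), on 28, 67, 33 and 25 UMIs, and pulp-like cells held 3, 0, 6 and 1 UMIs in all. The log2 fold change was 4.68 (SE 0.45, adjusted p = 0.000186, edgeR). Within the follicle the Bmp3 and Nts cluster led, at 11.4, 11.7, 13.9 and 12.8 CPM, above the Sfrp2 and Pcp4 cluster (4.98 ± 2.53) and the Spp1 and Mmp13 cluster (1.24 ± 1.59) in 4 of 4 libraries. The cluster with RANK was thus the follicle cluster with the least RANKL, at 0.964 ± 0.821 CPM. Endothelium-like cells led by Gpihbp1 and Plvap, genes of capillary endothelium, were at 10.4, 11.2, 15.4 and 11.5 CPM.

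The ratio of the receptors differed between these cells and macrophages. Of the UMIs of both receptors, Tnfrsf11a made up 38.1%, 76.5%, 48.8% and 77.8% in the Bmp3 and Nts cluster and 29.6%, 77.8%, 54.2% and 66.7% in the capillary endothelium-like cluster. In the first 2 macrophage clusters it made up 6.60% to 9.72% in a library. The summed macrophage markers in the Bmp3 and Nts cluster were 244, 22.0, 234 and 37.2 CPM. Their part in its Tnfrsf11a level was not tested. A UMI was found in 19.2%, 16.3%, 19.7% and 12.2% of its cells (median 14852 to 19024 UMIs), and after thinning in 1.37%, 1.25%, 3.95% and 0%, a level too close to 1 UMI to rank cells by.

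The shares of each gene's UMIs set sources beside receivers. Follicle-like cells held 76.5%, 56.2%, 59.8% and 59.6% of Tnfsf11 UMIs, from 7.43%, 22.9%, 6.73% and 19.3% of the cells, and 51.1%, 48.3%, 56.5% and 48.7% of Tnfrsf11b UMIs. Macrophage-like cells held 89.9%, 85.5%, 91.4% and 78.6% of Csf1r UMIs and 76.0%, 51.1%, 84.6% and 63.6% of Tnfrsf11a UMIs. In WT replicate 2, where macrophage-like cells were 7.12% of the cells and follicle-like cells 22.9%, follicle-like cells held 28.5% of Tnfrsf11a UMIs. Mesenchyme-like cells with no finer name held 15.3%, 39.2%, 19.5% and 18.4% of Tnfsf11 UMIs, next after follicle-like cells in each library. T or NK-like cells held 2, 3, 9 and 6 Tnfsf11 UMIs (1.63, 5.49, 17.3 and 20.7 CPM) in 40 to 81 cells a library.

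**Figure D4:**
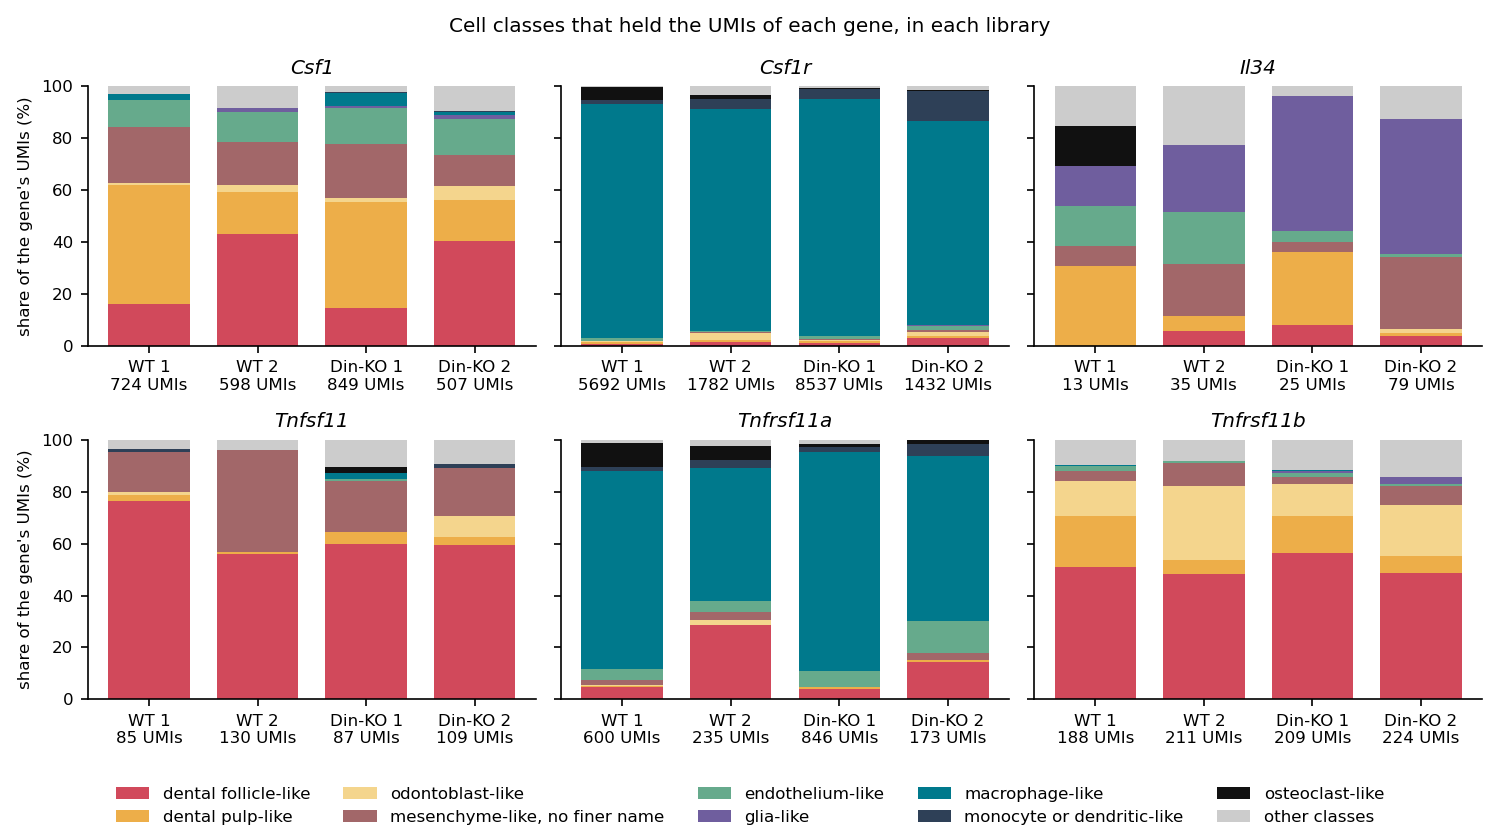
Share of the UMIs of each of the 6 genes (y axes, %) held by the cell classes in each library (x axes, with the gene's UMIs in that library below), stacked to 100% with grey for classes not drawn on their own. Follicle-like cells (red) hold 56.2% to 76.5% of Tnfsf11, macrophage-like cells (teal) 78.6% to 91.4% of Csf1r, and Csf1 changes between pulp-like and follicle-like cells with the replicate.

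Whether loss of Din changed these signals was tested in follicle-like, pulp-like and macrophage-like cells, 2 Din-KO against 2 WT libraries. None of the 11 tests of a member passed, and each had an adjusted p of at least 0.9997 (edgeR's quasi-likelihood test). Few genes were called in this fit, with 0.00798% of the 12537 genes tested called in follicle-like cells, 0% of 13629 in pulp-like cells and 0.0548% of 10954 in macrophage-like cells. An unadjusted p under 0.05 (edgeR) was found for 317 of the 12537 genes in follicle-like, 200 of the 13629 in pulp-like and 312 of the 10954 in macrophage-like cells. Each count is fewer than this threshold passes when no gene differs. In pulp-like cells, where edgeR called 0 genes, DESeq2 called 12. With the replicate number as a block, 155 genes were called in follicle-like, 278 in pulp-like and 157 in macrophage-like cells, and no member was. The single gene called in follicle-like cells was Ddx3y, a Y-linked gene, at 0, 0, 62.1 and 59.9 CPM.

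In follicle-like cells the log2 fold change of Din-KO against WT was -0.05 (SE 0.32) for Tnfsf11, from 12.3 ± 3.5 CPM in WT to 12.2 ± 0.7 CPM in Din-KO (SD, n = 2). It was 0.39 (SE 0.31) for Tnfrsf11b, 0.09 (SE 0.26) for Csf1, -0.38 (SE 0.40) for Tnfrsf11a and 1.14 (SE 0.65) for Csf1r. The make-up of the follicle-like class differed between libraries. Its cluster led by Spp1 and Mmp13 was 26.9% of follicle-like cells in WT replicate 1 and 10.4%, 13.3% and 14.3% in the other 3 libraries. Without that cluster the log2 fold change of Tnfsf11 was 0.48 (adjusted p = 1, edgeR). The follicle-like Csf1r values ranked the libraries as the macrophage markers given above did, with both highest in Din-KO replicate 1. With the highest Scrublet scores removed, the log2 fold change of Csf1r was 0.12. The part of these markers' cells in the Csf1r difference was not tested.

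In pulp-like cells the log2 fold change was 0.25 (SE 0.29) for Csf1, 0.49 (SE 0.68) for Tnfrsf11b and 0.72 (SE 0.49) for Csf1r. In macrophage-like cells it was -0.18 (SE 0.30) for Csf1r, from 1176 ± 306 CPM in WT to 999.7 ± 63.2 CPM in Din-KO, and 0.01 (SE 0.26) for Tnfrsf11a, from 97.6 ± 17.1 to 94.9 ± 10.2 CPM. Csf1 in macrophage-like cells was at 3.57, 0, 5.51 and 6.50 CPM on 19, 0, 45 and 7 UMIs (log2 fold change 1.26, SE 0.83). This gene and the pulp-like Csf1r were the tested members whose WT and Din-KO values did not overlap, as was the case for 25.8% of genes tested in macrophage-like and 22.6% in pulp-like cells. Within each replicate number, Csf1 and Csf1r were higher in Din-KO than in WT in follicle-like and in pulp-like cells, and Tnfrsf11b in follicle-like cells. In macrophage-like cells Csf1 was higher and Csf1r lower in Din-KO within each replicate number. The other tested members went in opposite directions in the replicate numbers. The share of all genes tested with a like direction in both was not counted, so these directions are descriptions. With 2 libraries against 2, an exact permutation test cannot give a two-sided p under 0.333.

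A genotype difference between follicle and pulp was not detected for any gene. The interaction term for Tnfsf11 was -1.70 (SE 1.05, unadjusted p = 0.154, adjusted p = 1, edgeR), resting on 10 pulp-like UMIs, and 0 of 13306 genes passed (0%), with 352 at an unadjusted p under 0.05. Here too that is fewer than this threshold passes when no gene differs.

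**Figure D5:**
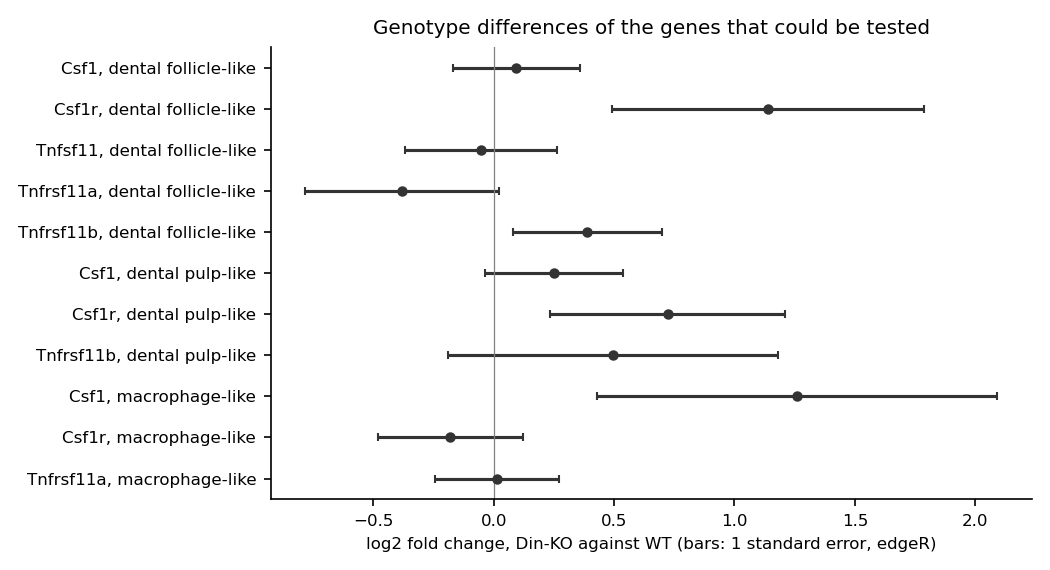
Log2 fold change of Din-KO against WT (x axis) for the members that could be tested in follicle-like, pulp-like and macrophage-like cells (y axis). Points are edgeR estimates over 2 libraries a genotype and bars are 1 standard error, and the values run from -0.38 to 1.26 with no adjusted p under 0.9997.

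The 4 lists of pathway genes were read in the same tests. Of 19 partners of the axis (co-receptors, adaptors and related cytokines) 13 could be tested in follicle-like against pulp-like cells, and 2 were called higher and 4 lower. For this and the other lists, the shares over all 13306 genes tested were 18.5% called higher and 16.9% lower. Kitl, the KIT ligand, was higher in follicle-like cells (14.4 ± 6.1 against 4.72 ± 1.58 CPM, log2 fold change 1.62), as was Nfatc1 (1.72), the transcription factor that RANK signalling induces in osteoclast precursors. Kit, the receptor of Kitl, was lower (20.1 ± 1.0 against 95.0 ± 72.1 CPM, -1.97), as was Ptprz1 (6.96 ± 1.65 against 24.6 ± 8.4 CPM, -1.78), a phosphatase that can bind IL34. Of 13 testable regulators of RANKL and OPG output, 6 were called higher and 3 lower. Osmr, a receptor of oncostatin M, was at 10.6 ± 2.2 against 0.483 ± 0.292 CPM (4.31), and Vdr, the vitamin D receptor, at 9.78 ± 6.21 against 55.0 ± 16.3 CPM (-2.55). Runx2, a transcription factor of bone formation, was at 481 ± 42 against 88.4 ± 23.9 CPM (2.52).

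Of 9 testable osteoclast genes 4 were called higher and 1 lower in the same comparison. Mmp9, a gelatinase of osteoclasts and other cells, was at 79.7 ± 23.5 CPM in follicle-like and 3.27 ± 3.22 CPM in pulp-like cells (5.63), and Ctsk at 268 ± 31 and 98.2 ± 10.6 CPM (1.46). Car2, the carbonic anhydrase of acid secretion, was at 3.83 ± 1.44 and 114 ± 61 CPM (-4.85). Dcstamp, Ocstamp, Oscar and Calcr, which mark osteoclasts more narrowly, were at 0 in follicle-like cells of all 4 libraries. Of 11 genes of the CSF1 receptor response 4 were called higher and 1 lower. Maf (log2 fold change 3.01), a transcription factor, and Cx3cr1 (22.4 ± 15.2 against 3.16 ± 3.30 CPM, 2.72) were higher, and Egr2 was lower (1.49 ± 0.73 against 3.65 ± 1.96 CPM, -1.23). The list also holds genes of macrophage upkeep, and Cx3cr1 is a macrophage gene. The summed macrophage markers were 34.8 to 329 CPM in follicle-like and 51.9 to 79.6 CPM in pulp-like cells, and their part in these calls was not tested. All named changes passed edgeR's test across 13306 genes, of which 35.5% passed in either direction. The list medians were 0.22 (partners), 0.23 (osteoclast genes), 0.36 (regulators) and 0.57 (CSF1 receptor response), beside -0.02 for all genes. None of the 4 lists had a gene called between genotypes in any of the 3 classes.

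Other genes with a like pattern were sought over 47 sums of at least 20 cells, from 13 classes, by Pearson's r of log2(CPM + 1) among 14983 genes. Sums of 1 library share its depth, so these are descriptions. Tnfsf11 was most like Podnl1 (0.83), Eya2 (0.75) and Pde11a (0.74), and Tnfrsf11b most like Pcsk6 (0.89), Adamts17 (0.86) and Zfp503 (0.86). Csf1 had the weakest likeness, to Cntln (0.76), Mrgpre (0.75) and Afap1 (0.74). Csf1r was most like Cd68, Tlr7 and Adgre1 (each 0.94), and Tnfrsf11a most like Cxcl16 (0.88), P2ry6 (0.87) and Trem2 (0.86), a receptor of macrophages and osteoclasts. Il34 was most like Pcdh20 (0.86), Sorcs1 (0.85) and Brinp2 (0.84). Glia-like cells, which led for Il34, entered from the Din-KO libraries only, as the WT libraries held 14 and 15 of them.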

How the data were processed

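The authors aligned reads to mm10/GRCm38 and made gene by barcode matrices with CellRanger (6.0.2 per the file headers), and they deposited raw UMI counts without normalization. Each library's matrix held 3257 to 6958 barcodes and 32198098 to 54348039 UMIs. The authors' filters were applied, which drop cells under 1000 genes, over 10% mitochondrial or over 3% hemoglobin UMIs and left 11310 of 20502. Seurat 5.3.0 integrated the libraries with 2000 variable genes and 30 principal components, with the cell cycle regressed, and clustered at a resolution of 1. The 6 members and 63 pathway genes were left out. Classes were named from marker lists, and cells with at least 3 osteoclast markers in the T or NK-like cluster were taken as osteoclast-like. Scrublet marked 0.946% of kept cells as doublets. None was removed in the reported values. The members and lists were chosen with earlier results of these data known.

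UMIs were summed per library and class and tested with edgeR 4.0.16 (R 4.3.3) with TMM, filterByExpr, the quasi-likelihood test and Benjamini-Hochberg adjustment over all genes tested, at 0.05, with no covariate between genotypes and with the library as a block between classes. The test was also run on counts simulated from a common profile of means, which leaves out the differences in make-up between libraries. DESeq2 1.42.0, other size factors, each library left out, no filter on low counts, a resolution of 0.5, classes by cell, removal of the 5% highest Scrublet scores, cells with at least 3 Xist UMIs and a replicate block were alternatives. The Xist cells also had to hold no UMI of the Y-linked genes Ddx3y, Eif2s3y, Kdm5d and Uty. Removal of the Spp1 and Mmp13 cluster was added after seeing the data. Thinning drew 2000 UMIs per cell and left out 76 shallower cells. Intervals are exact (binomial or Poisson), and cover counting error only. Free RNA was not modelled. Named genes were the members, up to 5 pathway genes with the largest fold in each direction per comparison, and 3 most correlated genes per member. A pathway gene under this rule is not reported here. Further pathway genes named (Kitl, Nfatc1, Runx2 and Ctsk) were chosen after their values were seen. Coordinates come from the GENCODE annotation of GRCm38.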

Additional observations from a re-analysis of the deposited data

How the results depend on the processing

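Counts of genes called between genotypes depended on the setting. In follicle-like cells (1 gene as reported) it was 0 with classes by cell, at a resolution of 0.5, without the Spp1 and Mmp13 cluster and in cells with Xist, 45 with DESeq2, 182.0 without a filter and 155 with a replicate block, and 6 to 97 with 1 library left out. In pulp-like cells (0) it was 2 at a resolution of 0.5, 12 with DESeq2, 52 without a filter, 278 with the block and 0 to 4 with 1 library left out. In macrophage-like cells (6) it was 0 with classes by cell or the highest Scrublet scores removed, 3 in cells with Xist, 53 with DESeq2, 144 without a filter, 157 with the block and 0 to 90 with 1 library left out. The replicate numbers in the titles are shared by 2 pairs. The library names in the labels set the same pairs apart, but nothing says what the names mark, so the block is no main result. It changed no call of a member. Over these settings the lowest adjusted p of a member between genotypes was 0.0951 (edgeR with the block), for Csf1r in follicle-like cells. The size of that difference depended on the setting. Its log2 fold change, 1.14 as reported, was 0.12 with the highest Scrublet scores removed and 0.22 in cells with Xist. Between follicle-like and pulp-like cells, 4719 genes were called as reported and 3019 without the library block.

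Tnfsf11, Tnfrsf11a and Tnfrsf11b stayed called higher in follicle-like than in pulp-like cells under all 13 alternatives, with adjusted p of at most 0.00139, 0.00512 and 0.0427. Csf1 lost its call (log2 fold change as reported 0.33) at a resolution of 0.5 (-0.042), with classes by cell (-0.11), without the Spp1 and Mmp13 cluster (-0.027), in cells with Xist (0.29), with DESeq2 (0.34), without a filter (0.34), without the library block (0.36) and without WT replicate 1, WT replicate 2 or Din-KO replicate 1 (0.30 to 0.37 over the 4 libraries left out). Csf1r lost its call at a resolution of 0.5 (1.15), with the highest Scrublet scores removed (-0.26), in cells with Xist (1.06), with DESeq2 (1.17), without the library block (1.33) and without WT replicate 1 or Din-KO replicate 1 (0.89 to 1.73 over the 4 left out). Of 27 alternative levels, 26 moved by less than 1 SD, and Csf1 in pulp-like cells was at 35.8 CPM at a resolution of 0.5.

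Genotype effects of members near 0 changed sign. In follicle-like cells this held for Csf1 at a resolution of 0.5 (-0.025), in cells with Xist (-0.078) and with 1 library left out (-0.17 to 0.35), for Tnfsf11 with the highest Scrublet scores removed (0.22), in cells with Xist (0.16), without the Spp1 and Mmp13 cluster (0.48) and with 1 library left out (-0.34 to 0.27), for Tnfrsf11a in cells with Xist (0.021) and for Tnfrsf11b with classes by cell (-0.25). In pulp-like cells it held for Tnfrsf11b with classes by cell (-0.30) and with 1 library left out (-0.38 to 1.25) and for Csf1 with 1 library left out (-0.018 to 0.52). In macrophage-like cells it held for Tnfrsf11a with the highest Scrublet scores removed (-0.0013) and with 1 library left out (-0.11 to 0.16) and for Csf1r with 1 library left out (-0.38 to 0.072). The interaction of Tnfrsf11b was -0.16 at a resolution of 0.5. The cause of these changes was not tested. Depth limits Il34, with 13 to 79 UMIs a library, and Tnfsf11 in pulp-like cells, with 1 to 4.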

Other observations

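The filters removed barcodes that carried part of these genes. Of all UMIs of a member in a library, 0% to 35.0% lay in removed barcodes, the highest share for Csf1r in Din-KO replicate 2 and the lowest for Il34 in Din-KO replicate 1. Among removed barcodes, 5, 4, 1 and 4 held at least 3 osteoclast markers, in the order WT replicate 1, WT replicate 2, Din-KO replicate 1, Din-KO replicate 2. The same rule was met by 70, 107, 59 and 61 kept cells, of which 10, 1, 4 and 1 were named osteoclast-like. The removed barcodes of WT that met it held 89 and 54 Csf1r UMIs (912 and 1011 CPM) and 13 and 14 Tnfrsf11a UMIs. Those of Din-KO held 1 and 0 Csf1r UMIs (538 and 0 CPM) and no Tnfrsf11a UMI. In Din-KO replicate 1 this was 1 barcode of 1860 UMIs. These are values of single barcodes with no test.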
